A study of Mus musculus with 6 samples.

Results

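The tumour necrosis factor (TNF) superfamily was followed in CD4+ dendritic cells (DC) of the spleen that had lost the RUNX transcription factor Runx3. The 43 genes considered were 17 ligands, 20 receptors and 6 TNF receptor-associated factors (TRAFs). They were listed by gene name, but with earlier results of these data known, and each was read from a probe set annotated with its symbol alone. Of these, 40 had such a probe set, exactly 1 each, and 27 were measured, that is, reached the study's background limit of 6.5 on the log2 scale in at least 1 array (9 ligands, 13 receptors and 5 TRAFs). Over the whole array 19938 genes had a probe set of their own and 9922 were measured. A further 13 members stayed below 6.5 in all 6 arrays, and 3 members had no probe set of their own, namely Tnfsf12, Tnfsf13 and Traf3.

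The arrays held RNA of 3 Runx3-/- and 3 wild type (WT) male mice aged 6 weeks, taken as 3 littermate pairs with 1 mouse of each genotype. The labels give no other allele and no treatment, and replicate numbers 1 to 3 name the litter. Spleen cells were enriched for DC on magnetic beads and sorted as CD11c+ MHCII+ cells split by CD4 and CD8. The Runx3 loss was germline, so every cell type of these mice lacked the gene, not DC alone, and the labels name Esam in the sort without stating its gate.

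Ligands of this superfamily are mostly trimeric membrane proteins, many of which can be shed, and their receptors carry cysteine-rich repeats outside the cell. Inside the cell some receptors bear a death domain that can recruit the caspase machinery, while most others bind TRAFs, adaptors that lead to NF-kB and MAP kinase activation. In splenic DC the family is known for CD40, through which T cells license DC, for the lymphotoxin beta receptor, which maintains CD4+ DC, and for ligands such as OX40L, CD70 and the ligand of CD137 that costimulate T cells.

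The targeted gene was read first as a check of the labels. Runx3 had log2 values of 9.16, 9.30 and 9.16 in Runx3-/- arrays, against 11.24, 11.22 and 11.11 in WT arrays. Every Runx3-/- array lay below every WT array, and the mean signal was 25.3% of WT (log2 change -1.98, SE 0.08, limma adjusted p = 0.0027, or 0.061 with the litter as a block). The remaining signal is read from the whole gene, and the position of its probes relative to the disrupted part was not given in the sources used here. The CD4+ DC markers were present, with 11 of 11 measured and a summed log2 level of 15.76 to 15.82 in Runx3-/- arrays and 15.79 to 15.87 in WT arrays. Single markers differed more than this sum. Without overlap, 5 of the 11 lay below WT, beside 18.6% of genes, and 2 above, beside 9.86%, while 4 overlapped. The factor Irf4 was called lower (-0.62, limma adjusted p = 0.043, or 0.10 with the litter as a block). Of 8 T cell markers 7, among them Cd3d, Cd3e and Cd3g, were below background throughout. The other, Cd5, had a change of -0.25, and the summed T cell level overlapped, at 9.76 to 9.94 in Runx3-/- arrays and 9.78 to 10.06 in WT arrays.

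Of the 27 measured members, 1 was called at an adjusted p of at most 0.05 (limma, adjusted over 19149 probe sets), the ligand Tnfsf8, which fell, beside 2.27% of the 9922 measured genes (1.36% higher and 0.907% lower). At the thresholds of the study's methods, a fold of at least 1.5 with an unadjusted p of at most 0.05, 4 members passed, beside 4.68% of genes: Tnfrsf21 and Tnfrsf13c higher (3.05% of genes), Tnfsf8 and Tnfrsf18 lower (1.62%). Before adjustment 8 members had p of at most 0.05, beside 19.4% of genes. In 9 members the Runx3-/- and WT values did not overlap, beside 28.5% of genes, with 4 lying above WT (9.86% of genes) and 5 below (18.6%). One of these 9, Tnfsf9, was counted as measured only through the Runx3-/- arrays in which it was higher. Without WT replicate 2 the non-overlapping members were 14, beside 38.6% of genes.

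The calls moved with the fit. With the litter as a block 0 members passed an adjusted p of 0.05, beside 0% of genes, while 10 members had p of at most 0.05 before adjustment, beside 21% of genes. When only probe sets with 1 gene symbol were tested, a choice made after the data were seen, Tnf, Tnfsf8 and Tnfrsf18 passed as lower and Tnfsf15 and Tnfrsf13c as higher, 5 members in all, beside 5.89% of genes.

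**Figure D1:**
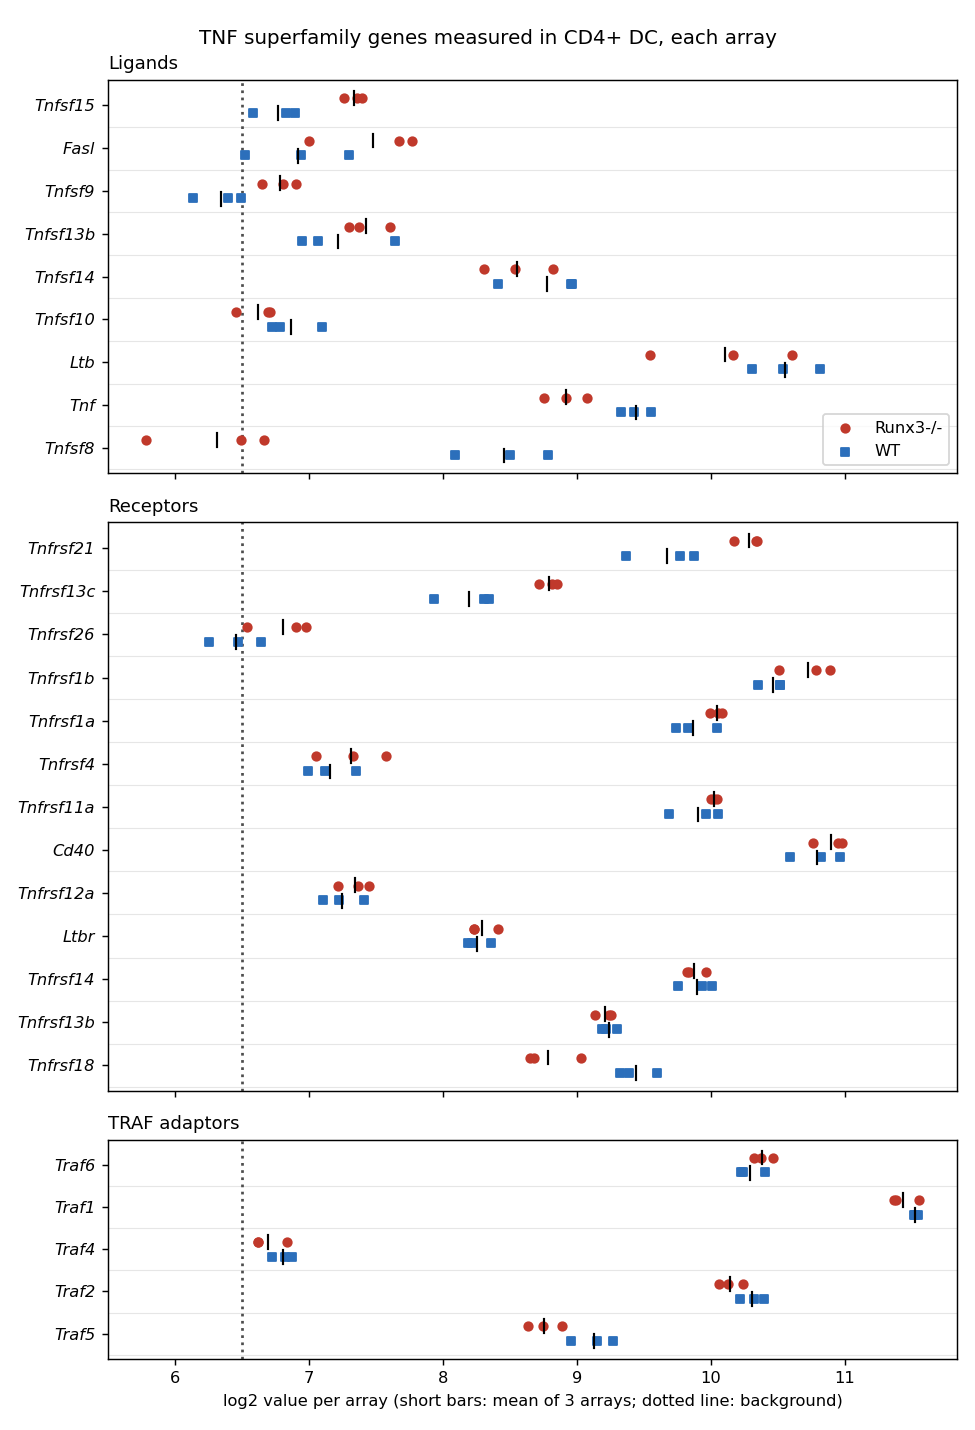
Log2 signal of the 27 measured members in each array, Runx3-/- above WT within each gene; circles (Runx3-/-) and squares (WT) are arrays, short bars are group means of 3 mice and the dotted line is the background limit of 6.5. The gap between genotypes is widest for Tnfsf8, whose Runx3-/- arrays lie at 5.79 to 6.66 and WT arrays at 8.09 to 8.78.

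The plot of the members by array shows that most receptors, and all measured TRAFs but Traf5, had overlapping Runx3-/- and WT values, as did 4 of the 9 ligands. The median log2 change of the 27 members was 0.10, beside -0.03 over all measured genes, and 23 of the 27 lay within 1.5-fold, beside 9396 of the 9922 genes. By role the median was -0.22 for ligands, 0.12 for receptors and -0.12 for TRAFs. From the 5th to the 95th percentile, all measured genes ran from -0.36 to 0.45.

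The promoters of the 4 members past the study's thresholds, and of Tnfsf15, which lies next to Tnfsf8 with no coding gene between them, are shown because Runx3 is a DNA-binding protein that recognises TGTGGT. These are the 250 bases before the transcription start, 5′ to 3′ on the gene's strand, from RefSeq (GRCm38.p6), a build other than that of the arrays, with any TGTGGT or its reverse complement ACCACA in capitals.
Tnfsf8 (chr4:63861285-63861534, minus strand): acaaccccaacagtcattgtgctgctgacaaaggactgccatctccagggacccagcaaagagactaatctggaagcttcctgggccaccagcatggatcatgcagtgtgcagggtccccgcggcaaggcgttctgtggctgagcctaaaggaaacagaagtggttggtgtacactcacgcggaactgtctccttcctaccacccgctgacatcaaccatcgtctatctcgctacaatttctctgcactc
Tnfsf15 (chr4:63745060-63745309, minus strand): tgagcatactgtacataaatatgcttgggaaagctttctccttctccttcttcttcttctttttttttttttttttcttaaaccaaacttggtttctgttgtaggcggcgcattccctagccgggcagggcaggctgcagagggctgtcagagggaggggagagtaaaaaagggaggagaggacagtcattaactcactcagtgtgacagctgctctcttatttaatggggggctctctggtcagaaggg
Tnfrsf18 (chr4:156026072-156026321, plus strand): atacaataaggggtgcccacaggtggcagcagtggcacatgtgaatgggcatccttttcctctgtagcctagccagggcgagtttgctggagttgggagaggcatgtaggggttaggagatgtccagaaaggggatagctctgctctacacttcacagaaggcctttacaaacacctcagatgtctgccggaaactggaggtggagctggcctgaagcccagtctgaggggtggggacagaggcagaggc
Tnfrsf21 (chr17:43016305-43016554, plus strand): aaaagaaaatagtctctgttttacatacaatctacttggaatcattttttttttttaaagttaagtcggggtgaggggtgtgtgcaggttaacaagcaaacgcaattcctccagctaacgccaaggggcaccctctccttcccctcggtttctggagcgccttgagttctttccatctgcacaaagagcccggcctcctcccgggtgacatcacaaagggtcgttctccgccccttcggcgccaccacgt
Tnfrsf13c (chr15:82224381-82224630, minus strand): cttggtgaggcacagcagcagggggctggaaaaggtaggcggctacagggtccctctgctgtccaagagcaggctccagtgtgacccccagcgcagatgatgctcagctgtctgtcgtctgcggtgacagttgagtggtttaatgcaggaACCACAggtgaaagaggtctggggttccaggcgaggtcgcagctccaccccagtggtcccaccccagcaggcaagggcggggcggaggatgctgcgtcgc
Of these 5 stretches only that of Tnfrsf13c held the motif, as ACCACA, ending 94 bases before the start. In the 300-base windows that add 50 bases after the start, TGTGGT on either strand occurred in 9 of the 35 members with a window (25.7%) and in 5 of the 24 measured ones (20.8%), namely Tnfrsf13c, Tnfsf14, Traf1, Traf5 and Traf6. The share was 18.9% of 27025 genes with a window and 15.1% of the 8040 measured genes. No other motif was searched, and a match is a description of the letters and not of a bound site.

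Among the ligands, Tnfsf8 (CD30 ligand, a T cell and B cell regulator) showed the widest difference. Its log2 values were 5.79, 6.66 and 6.49 in Runx3-/- arrays and 8.09, 8.78 and 8.50 in WT arrays. The highest Runx3-/- value stayed far below the lowest WT value, and only 1 of the 3 Runx3-/- arrays reached the background limit. Tnfsf8 fell by 2.15 on the log2 scale (SE 0.27, 95% interval -2.81 to -1.48), a 4.43-fold lower signal with a limma adjusted p of 0.028. This fold rests in part on the 2 Runx3-/- values below the background limit, where the signal is least certain. With the litter as a block the adjusted p was 0.061, although the 3 litters gave close differences of -2.31, -2.12 and -2.01, and no gene on the array passed 0.05 in that fit. The adjusted p lay between 0.066 and 0.098 when any 1 array other than Runx3-/- replicate 2 was left out. In sorted cell populations such as these, fewer cells that express a gene and less RNA per cell cannot be told apart.

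Tnfsf15 (TL1A, a costimulator of T cells through the receptor DR3) stood on the other side of WT. It read 7.36, 7.40 and 7.26 in Runx3-/- arrays and 6.83, 6.89 and 6.58 in WT arrays. The Runx3-/- arrays were tightly grouped and all above WT, with a log2 change of 0.57 (95% interval 0.32 to 0.82, 1.49-fold), just under 1.5-fold, and the limma adjusted p was 0.061. Tnf itself, the founding inflammatory cytokine of the family, read 8.76, 9.08 and 8.92 in Runx3-/- arrays and 9.56, 9.33 and 9.43 in WT arrays. Again the groups did not overlap, this time with Runx3-/- below, but the size varied by litter (-0.80, -0.25 and -0.51) and the change of -0.52 (1.43-fold) had an adjusted p of 0.089.

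Tnfsf9, the ligand of CD137, read 6.80, 6.65 and 6.90 in Runx3-/- arrays, against 6.49, 6.39 and 6.14 in WT arrays. All WT arrays were below background and all Runx3-/- arrays slightly above it, so the fold is at least 1.22 and the adjusted p was 0.15. Tnfsf10 (TRAIL, a death ligand) read 6.70, 6.45 and 6.71 in Runx3-/- arrays and 6.72, 7.10 and 6.78 in WT arrays. The groups did not overlap, yet the Runx3-/- value of litter 1 was nearly that of its WT littermate (-0.03), and the change of -0.25 had an adjusted p of 0.42.

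The other 4 ligands overlapped between genotypes. Ltb, the membrane chain of the lymphotoxin that engages Ltbr, read 9.55, 10.17 and 10.61 in Runx3-/- arrays and 10.54, 10.31 and 10.82 in WT arrays. Each Runx3-/- mouse was below its littermate, with differences of -1.0, -0.14 and -0.21, and the change of -0.45 had a wide interval (-1.13 to 0.23, adjusted p = 0.50). Fasl, the ligand of the death receptor Fas, read 7.0, 7.68 and 7.77 in Runx3-/- arrays and 7.30, 6.52 and 6.94 in WT arrays. Here the litters disagreed, litter 1 being lower and the others higher in Runx3-/-, with a mean change of 0.56 (-0.10 to 1.22, adjusted p = 0.38). Tnfsf13b (BAFF, a B cell survival factor) and Tnfsf14 (LIGHT) had changes of 0.21 and -0.22 with adjusted p-values of 0.67 and 0.64.

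**Figure D2:**
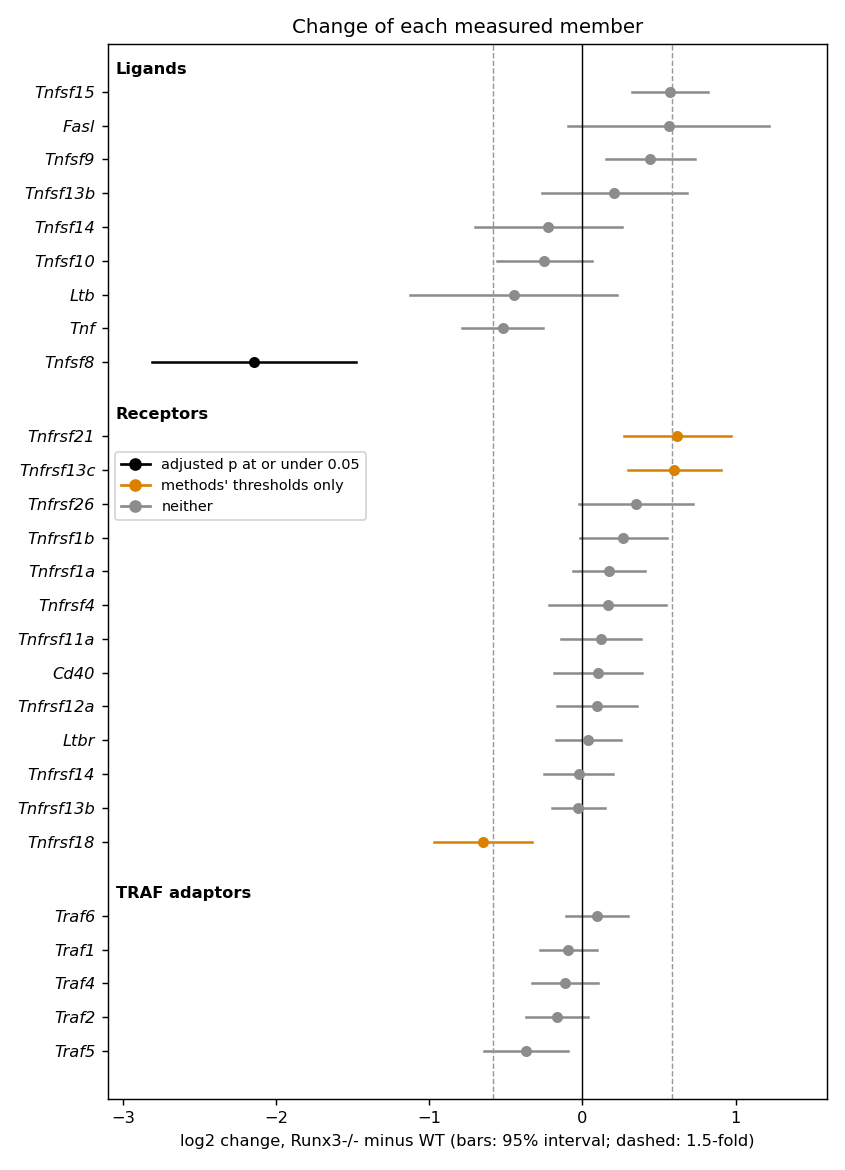
Log2 change (Runx3-/- minus WT) of each measured member by role, with 95% intervals from limma over 3 mice per genotype; dashed lines mark 1.5-fold, black is an adjusted p of at most 0.05, orange passes the study's thresholds only and grey neither. Tnfsf8 at -2.15 stands far from the others, which lie between -0.65 and 0.62.

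In the interval plot of the changes, for 14 of the 27 the whole 95% interval stayed within 1.5-fold. Among them were 9 of 13 receptors, 4 of 5 TRAFs and 1 of 9 ligands, Tnfsf10. The share over all measured genes was not taken, and the roles were not tested against each other.

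Among the receptors, Tnfrsf21 (a death domain receptor also called DR6) read 10.35, 10.18 and 10.34 in Runx3-/- arrays and 9.77, 9.87 and 9.37 in WT arrays. All Runx3-/- arrays were above WT, but WT spread more widely than Runx3-/- and the litter differences ran from 0.30 to 0.97. The change was 0.62 (95% interval 0.27 to 0.97, 1.53-fold) with an adjusted p of 0.11. Tnfrsf1a, the other death domain receptor measured, which is the main TNF receptor for death and NF-kB signalling, had a change of 0.17 (-0.06 to 0.41, adjusted p = 0.45).

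Tnfrsf13c (the BAFF receptor, best known on B cells) read 8.85, 8.81 and 8.72 in Runx3-/- arrays and 7.93, 8.30 and 8.34 in WT arrays. The Runx3-/- values were close together and above all WT values, with WT replicate 1 the lowest. The change was 0.60 (95% interval 0.30 to 0.90, 1.52-fold, adjusted p = 0.088). Beside it, 3 of the 6 measured B cell marker genes also lay above WT in every Runx3-/- array, Cd79b by 0.58 (adjusted p = 0.077), whereas Cr2 lay below (-0.77, adjusted p = 0.11) and Pax5 was below background in all arrays. The summed B cell level overlapped, at 11.10 to 11.22 in Runx3-/- arrays and 10.79 to 11.18 in WT arrays, and its part in the Tnfrsf13c difference was not tested.

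Tnfrsf18 (GITR, a costimulatory receptor of regulatory T cells) was the receptor that lay lowest relative to WT. It read 8.68, 9.03 and 8.65 in Runx3-/- arrays and 9.39, 9.60 and 9.33 in WT arrays. No Runx3-/- array reached the lowest WT array and the litters were alike (-0.71, -0.57 and -0.68), with a change of -0.65 (95% interval -0.97 to -0.33, 1.57-fold) and an adjusted p of 0.083, or 0.081 with the litter as a block. Of 3 regulatory T cell markers, Foxp3 and Ctla4 were below background in all 6 arrays. The third marker, Ikzf2, reached the limit in 2 Runx3-/- arrays and 0 WT arrays. The summed level of the 3 was 7.45 to 7.51 in Runx3-/- arrays and 7.32 to 7.35 in WT arrays. All values in this sum but the 2 of Ikzf2 were below background, and the part of regulatory T cells in the Tnfrsf18 difference was not tested.

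**Figure D3:**
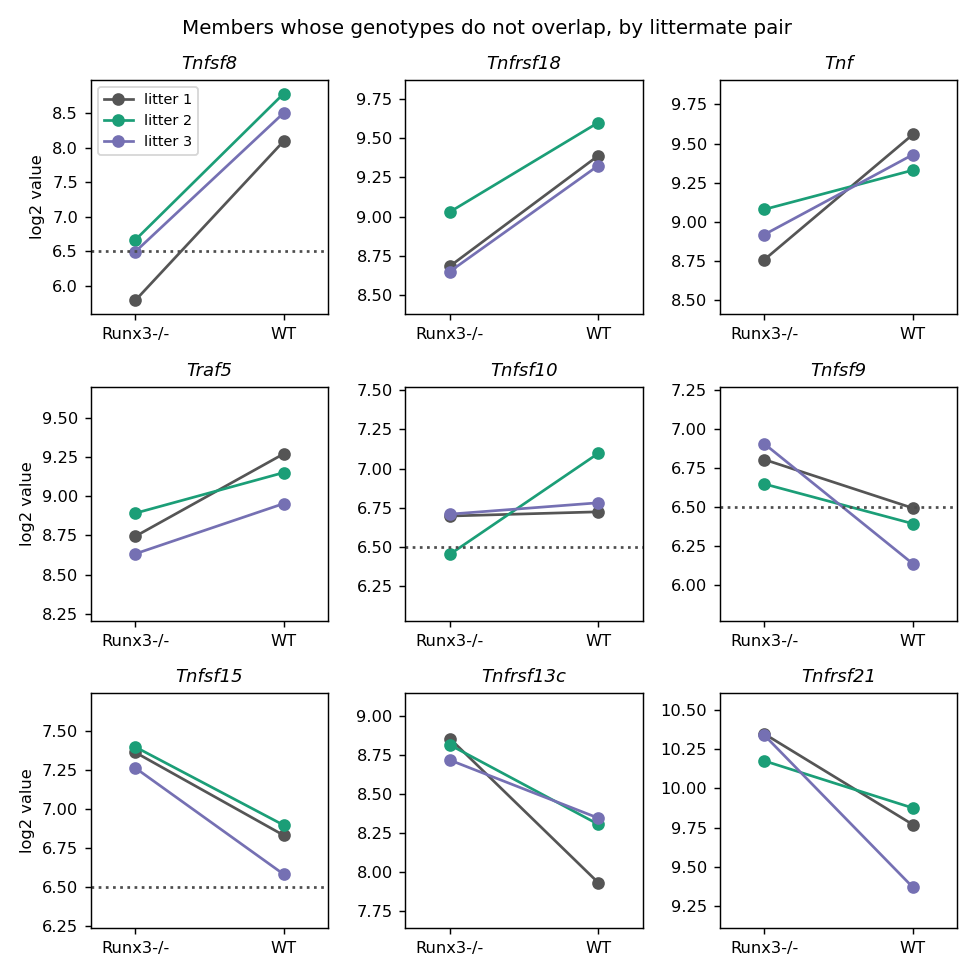
Log2 signal of the 9 members whose groups did not overlap, Runx3-/- at left and WT at right in each panel, with lines joining littermates. Lines for Tnfsf8, Tnfsf15 and Tnfrsf18 are nearly parallel, whereas those for Tnf, Tnfsf10 and Tnfrsf21 differ in slope between litters. The Tnfsf8 panel spans a wider log2 range, so equal differences look smaller there.

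The littermate lines show that agreement between litters differed among these 9 members. Over all 27 measured members, 8 were higher and 8 lower in the Runx3-/- mouse of each litter, and 11 were mixed. The same count was not made over all measured genes, so no trait of these members is read from it.

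Of the remaining 10 receptors, all with overlapping groups, the receptors through which DC are licensed or maintained were close to WT. Cd40, the licensing receptor, read 10.95, 10.99 and 10.76 in Runx3-/- arrays and 10.97, 10.83 and 10.60 in WT arrays, a change of 0.10 (-0.19 to 0.39). Ltbr, which in mice maintains CD4+ DC, read 8.23, 8.23 and 8.41 in Runx3-/- arrays and 8.19, 8.36 and 8.22 in WT arrays, a change of 0.04 (-0.17 to 0.25). For both receptors the interval keeps any difference within 1.5-fold in either direction, and Tnfrsf11a (RANK), Tnfrsf12a (Fn14), Tnfrsf13b (TACI), Tnfrsf14 (HVEM) and Tnfrsf4 (OX40) were similarly bounded, with changes of -0.03 to 0.16.

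Tnfrsf1b, the TNF receptor without a death domain, read 10.78, 10.89 and 10.51 in Runx3-/- arrays and 10.52, 10.52 and 10.35 in WT arrays. It was higher in the Runx3-/- mouse of each litter although the groups overlapped, by 0.27 (-0.02 to 0.55, adjusted p = 0.34). Tnfrsf26 was near background, with all 3 Runx3-/- arrays but only 1 WT array reaching it, with a change of 0.35 (adjusted p = 0.35).

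Among the TRAFs, Traf5, an adaptor of CD40 and other costimulatory receptors, was the only one whose groups did not overlap. It read 8.74, 8.89 and 8.63 in Runx3-/- arrays and 9.27, 9.15 and 8.95 in WT arrays. All Runx3-/- arrays were below WT, and the change was -0.37 (-0.64 to -0.10, 1.29-fold, adjusted p = 0.19). Traf2, the ubiquitin ligase adaptor of many of these receptors, lay lower in each litter (-0.19, -0.16 and -0.15) with overlapping groups, a change of -0.17 (-0.37 to 0.04). Traf1, the TRAF without a RING domain, Traf4 and Traf6, which also serves Toll-like and IL-1 receptors, had changes of -0.09, -0.12 and 0.10.

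Set side by side as partners, 7 of 23 known ligand-receptor pairs had ligand and receptor both measured in these cells, 6 only the ligand, 8 only the receptor and 2 neither. In the 2 Tnf pairs the ligand read below WT while Tnfrsf1a and Tnfrsf1b gave 0.17 and 0.27. In the 2 BAFF pairs Tnfsf13b gave 0.21, with Tnfrsf13c at 0.60 and Tnfrsf13b at -0.03. For Tnfsf8, Tnfsf9 and Tnfsf15 the receptors (Tnfrsf8, Tnfrsf9 and Tnfrsf25) were below background in all 6 arrays, and for Cd40, Tnfrsf4, Tnfrsf11a and Tnfrsf18 it was the ligand that was below background.

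The members not measured were 6 ligands (Lta, Tnfsf4, Tnfsf11, Tnfsf18, Cd40lg and Cd70) and 7 receptors (Tnfrsf8, Tnfrsf9, Tnfrsf10b, Tnfrsf17, Tnfrsf25, Fas and Cd27), with values of 4.79 to 6.45. Fas came nearest to the limit, at 6.45, 6.09 and 6.20 in Runx3-/- arrays and 5.77, 5.62 and 5.94 in WT arrays. Its groups did not overlap, but no fold is given because every value lies below background.

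Genes around the family were taken as 4 lists. Of the ligand-processing genes (sheddases and their partners) 6 of 8 were measured and none passed an adjusted p of 0.05. Adam17, which sheds TNF, gave 0.24 (adjusted p = 0.14). Of the other superfamily genes 3 of 9 were measured, Relt, Tnfrsf22 and Tnfrsf23, with changes of -0.02 to 0.20, none called.

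Of 42 receptor signalling genes 38 were measured and 1 passed, Cflar, which encodes c-FLIP, the inhibitor of caspase activation at death receptors. Cflar read 11.02, 10.91 and 10.87 in Runx3-/- arrays and 10.50, 10.36 and 10.47 in WT arrays. The groups were clearly apart and Cflar rose by 0.49 (SE 0.08, 1.41-fold, adjusted p = 0.044, or 0.10 with the litter as a block). The list's median was -0.03, beside -0.03 over all genes, with 6 genes above WT without overlap, beside 9.86% of all measured genes, and 8 below, beside 18.6%. Mlkl, the effector of necroptosis, passed the study's thresholds only (adjusted p = 0.13), and no fold is given because all WT arrays and 1 Runx3-/- array were below background.

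Of 30 NF-kB factors and targets 26 were measured and 1 passed, Nfkbia, the inhibitor of NF-kB that NF-kB itself induces. It read 11.76, 11.77 and 11.77 in Runx3-/- arrays and 11.31, 11.38 and 11.37 in WT arrays. Both groups were very tight and did not overlap, and Nfkbia rose by 0.41 (SE 0.06, 1.33-fold, adjusted p = 0.039, or 0.11 with the litter as a block). With any 1 of the 6 arrays left out, neither Cflar nor Nfkbia passed an adjusted p of 0.05. The median of the list was 0.13, with 9 genes above WT without overlap, beside 9.86% of all measured genes, and 2 below, beside 18.6%. This list was chosen with earlier results of these data known, so no trait of it is read from these counts. The chemokines Ccl22 and Cxcl16, the cytokine subunit Il12b and the actin bundler Fscn1 passed the study's thresholds only, with changes of 0.60 to 0.82 and adjusted p-values of 0.16 to 0.23.

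**Figure D4:**
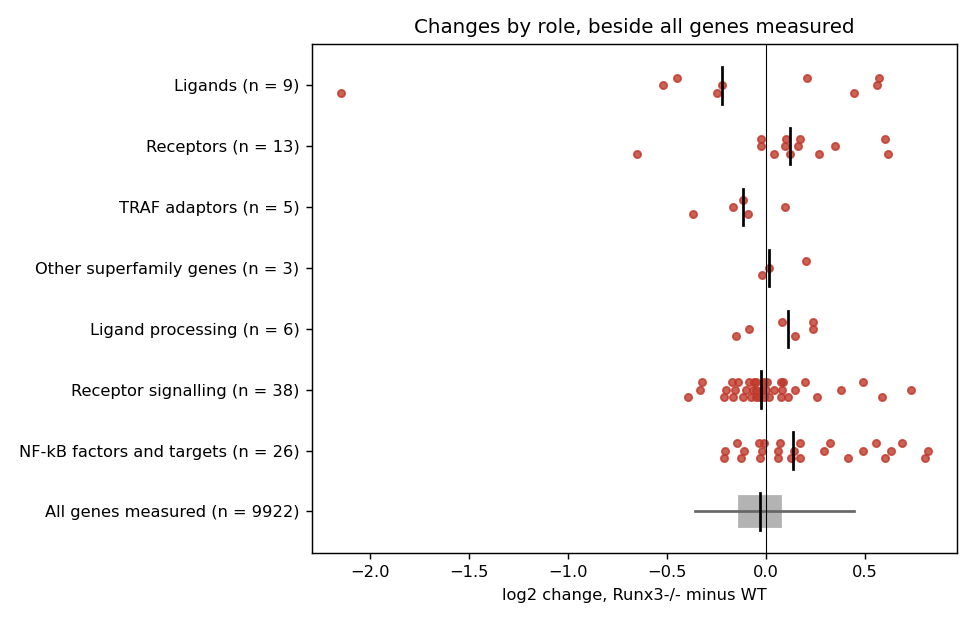
Log2 change (Runx3-/- minus WT) of measured genes by role, one dot per gene, with a bar at the median of each list; the bottom row gives all 9922 measured genes as a box from the lower to the upper quartile with a line from the 5th to the 95th percentile. Ligands spread from -2.15 to 0.57, while TRAFs lie between -0.37 and 0.10.

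The plot by role shows the NF-kB list shifted a little to the right of the all-gene median and the receptor signalling list centred on it. Both lists were chosen with earlier results known, so the shift is only described. Marker genes of other cells also differed with the genotype. Of 8 measured red pulp macrophage markers 5 were called higher at an adjusted p of 0.05, with a summed level of 13.17 to 13.49 in Runx3-/- arrays and 11.84 to 12.36 in WT arrays. Monocyte or macrophage markers summed to 14.23 to 14.33 in Runx3-/- arrays and 13.78 to 14.04 in WT arrays, with 6 of 6 measured and none called. The CD8+ DC markers, 6 of 7 measured, summed to 10.90 to 11.25 in Runx3-/- arrays and 10.58 to 10.75 in WT arrays. Cadm1 was called higher, but of the 6 only 2 lay above WT without overlap, 3 overlapped and 1 lay below (-0.47). The plasmacytoid DC markers, 4 of 5 measured, summed to 10.48 to 11.83 in Runx3-/- arrays and 10.33 to 10.44 in WT arrays. The summed levels of these 4 marker groups did not overlap between genotypes, although in each group at least 1 single marker did. Of 5 neutrophil markers only Csf3r was measured, with a change of 1.07, and of 7 NK cell markers 0 were measured. Whether these marker genes were expressed by other cells or by the sorted CD4+ DC themselves was not tested. Any part of other cells in the higher values of Tnfrsf21, Tnfsf15, Tnfsf9, Cflar and the NF-kB targets was not tested either.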

How the data were processed

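Gene expression was measured on 6 Affymetrix arrays. The authors summarised probes by RMA with GC correction in Partek. The deposited values are log2 signals with similar but not identical distributions across arrays (medians 6.57 to 6.65), so a shift common to most genes may not fully show. Of the 9922 measured genes, 5823 had a negative change and 4099 a positive one. The submitters' processing notes name mm9 without software versions. The array is an exon type in the methods but gene-level by its probe sets. Of 35399 probe sets, 21789 had 1 symbol, 1621 several and 11989 none.

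The 19149 probe sets at 6.5 or more in at least 1 array were fitted in limma 3.58.1 (R 4.3.3) by genotype, with Benjamini-Hochberg adjustment, and checked on simulated data. A gene was read from its 1-symbol probe set with the highest mean. Genes described by rule were members past a threshold or with non-overlapping groups, and list genes past an adjusted p of 0.05. Adam17 was named for the smallest p in its list. Other genes of the lists, such as Cd79b and Cr2, are named although they did not pass. Per-array values of other members, such as Cd40 and Ltbr, and list genes past the study's thresholds were chosen after their values were seen. Members and lists were chosen with earlier results of these data known. The numbers pair the mice because the labels state the litters. Same-litter deviations correlated at 0.16, 0.10 and 0.25, beside -0.23 to 0.10 between litters, so these correlations did not set litter 2 apart. The alternatives were 15 planned and 1 added. The number of arrays limits precision, and p-values rest on 3 mice per genotype.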

Additional observations from a re-analysis of the deposited data

How the results depend on the processing

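With the litter as a replicate block, members called at an adjusted p of 0.05 numbered 0, as did the receptor signalling and the NF-kB calls, and the adjusted p was 0.061 for Tnfsf8 and for Runx3 (change -1.98). By the analysis of variance of the study's methods all 3 counts at an adjusted p of 0.05 were 0, and the adjusted p of Tnfsf8 was 0.14. Before adjustment, 8 members had p of at most 0.05 in it, and 4 passed the study's thresholds of fold and unadjusted p. The shares over all genes were not taken for that analysis. Leaving out 1 array gave 0 to 1 members, 0 receptor signalling genes and 0 NF-kB genes. With 1 array left out the Runx3 change was -2.03 to -1.96, with an adjusted p of 0.054 without WT replicate 1. Testing only probe sets with 1 symbol, chosen after the data were seen, gave 5 members (Tnf, Tnfsf8, Tnfsf15, Tnfrsf13c and Tnfrsf18), beside 5.89% of genes, and 2 receptor signalling genes, while the probe set of highest variance gave 0 receptor signalling genes. The non-overlapping members numbered 10 to 14 with 1 array left out, the most without WT replicate 2 (38.6% of genes). For the other arrays left out the share of genes was not taken, so those counts are not read as a change. The members' median change was 0.015 to 0.083 with 1 array left out, the lowest without WT replicate 3. Changes near 0 turned sign for Tnfrsf13b (0.0103 by quantile normalization, 0.0126 by median centring, -0.051 to 0.0089 with 1 array left out, 0.0039 without WT replicate 3), for Tnfrsf14 (0.0146 by median centring, -0.098 to 0.030 with 1 array left out) and for Ltbr (-0.021 to 0.092 with 1 array left out). The cause was not tested. Signals near background bound the low members only loosely.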

Other observations

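Several members lie beside each other with no coding gene between them, and neighbours did not always read alike. Tnfsf15 and Tnfsf8 read to opposite sides of WT, with log2 changes of 0.57 and -2.15. Tnfrsf4 and Tnfrsf18 had changes of 0.16 and -0.65, and Ltb and Tnf had changes of -0.45 and -0.52, while Lta, on the other side of Tnf, was below background in all 6 arrays. Of Tnfsf9 and Tnfsf14, with Cd70 between them and below background, Tnfsf9 had an estimated fold of at least 1.22 above WT and Tnfsf14 a change of -0.22. The differences between neighbours were not tested.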
